A study of Rattus norvegicus with 20 samples.

Results

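The aldo-keto and carbonyl reductases of the rat liver described here are Akr7a3, Akr7a2, Akr1a1, Akr1c14, Akr1c15, Akr1d1, Cbr1 and Cbr4. They were taken by gene symbol, with every probe set that the platform annotation gives to those symbols, which made 8 of 14217 genes and 11 of 31099 probe sets on the array. The 8 genes were chosen on these same arrays, from the levels that earlier work had found in the 4 diets, and the difference of Akr7a3 between sesamolin and episesamin was part of that choice, so this gene's values with those lignans are described below without a test. All 11 probe sets passed the filter on low signal, with 20 arrays above the filter level of 17.8 for each of them except Akr1c15, which had 19. Akr1c14 was read by 3 probe sets, Akr1d1 by 2 and each of the other 6 genes by 1.

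The data are Affymetrix expression arrays of liver RNA from male Sprague-Dawley rats, 1 array per rat and 5 rats per diet. Rats arrived at 4 weeks of age, were acclimatised for 7 d, and were then split into groups of 7 that ate a diet with 0.2% sesamin, 0.2% episesamin, 0.2% sesamolin or no lignan for 15 d. The heaviest and the lightest rat of each group were not put on arrays, and RNA was not pooled. Sesame lignans are built on a furofuran ring system. Sesamin and episesamin are a pair of epimers, while sesamolin has an ether oxygen between a methylenedioxyphenyl group and the furofuran ring. Every lignan was given at 1 dose and for 1 time, so the 3 compounds are compared at matched doses and times.

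Aldo-keto reductases and the carbonyl reductases of the short-chain dehydrogenase family are enzymes that use NADPH to turn aldehydes and ketones into alcohols. In liver they clear reactive carbonyls made from lipids, sugars and foreign compounds, and several members act on the steroid ring in hormone inactivation and bile acid synthesis. Akr7a3 is the aflatoxin aldehyde reductase of the rat, known for its induction by antioxidants given in the diet, and Akr7a2 is its close relative that also reduces succinic semialdehyde.

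Each value below is a normalized intensity of a probe set, a linear signal after quantile normalization of the arrays, and differences are on a log2 scale with an offset of 5.85. Differences carry the SE of a limma fit to all 20 arrays and 11576 genes, and a gene is called where its Benjamini-Hochberg adjusted p over these genes lies below 0.05. Rats are given in the order of their replicate numbers 1 to 5 within a diet, and no label says that a number links rats of different diets. The same 5 lignan-free arrays stand in each comparison with that diet, so the 3 comparisons are not independent. Mean raw intensity per array ran from 159 to 271, and 6 arrays lay below 200 (lignan-free 3, sesamin 2, episesamin 3 and 4, sesamolin 2 and 5). Of 10 hepatocyte markers such as Alb and Ttr, 9 had a probe set, all 9 passed the filter, and their summed level was 93729 to 95407 with sesamin, 86839 to 93126 with episesamin, 89713 to 95336 with sesamolin and 93730 to 98338 without lignan. The summed signal of these hepatocyte markers was thus high in every array, and every episesamin array lay below every lignan-free array.

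Against the lignan-free diet, Cbr1 was called higher and Akr1c14 lower with both episesamin and sesamolin, and no member was called with sesamin. Whether the number of calls differs between lignans was not tested. With sesamin 0 of the 8 passed (3 at an unadjusted limma p below 0.05), where 0.397% of all genes were called higher and 0.0346% lower than without lignan. Akr7a3 carries no test with episesamin or sesamolin, so 7 genes are counted with these lignans. With episesamin 2 of 7 were called, Cbr1 higher and Akr1c14 lower, beside 2.91% of all genes higher and 2.21% lower. With sesamolin 4 of 7 were called, Cbr1 and Akr7a2 higher and Akr1c14 and Akr1c15 lower, beside 3.28% of all genes higher and 2.95% lower. Because the genes were chosen with these results known, nothing is read from the shares. The median log2 difference of the 8 genes was -0.05 with sesamin, -0.04 with episesamin and 0.17 with sesamolin, and over all genes tested it was -0.01, -0.02 and -0.01. The split of calls over all genes into higher and lower moved with the scaling of the arrays. It was 46 to 4 with sesamin (28 to 7 with median scaling), 337 to 256 with episesamin (180 to 496 with median scaling, 73 to 190 with no normalization) and 380 to 342 with sesamolin (178 to 457 and 68 to 196).

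**Figure D1:**
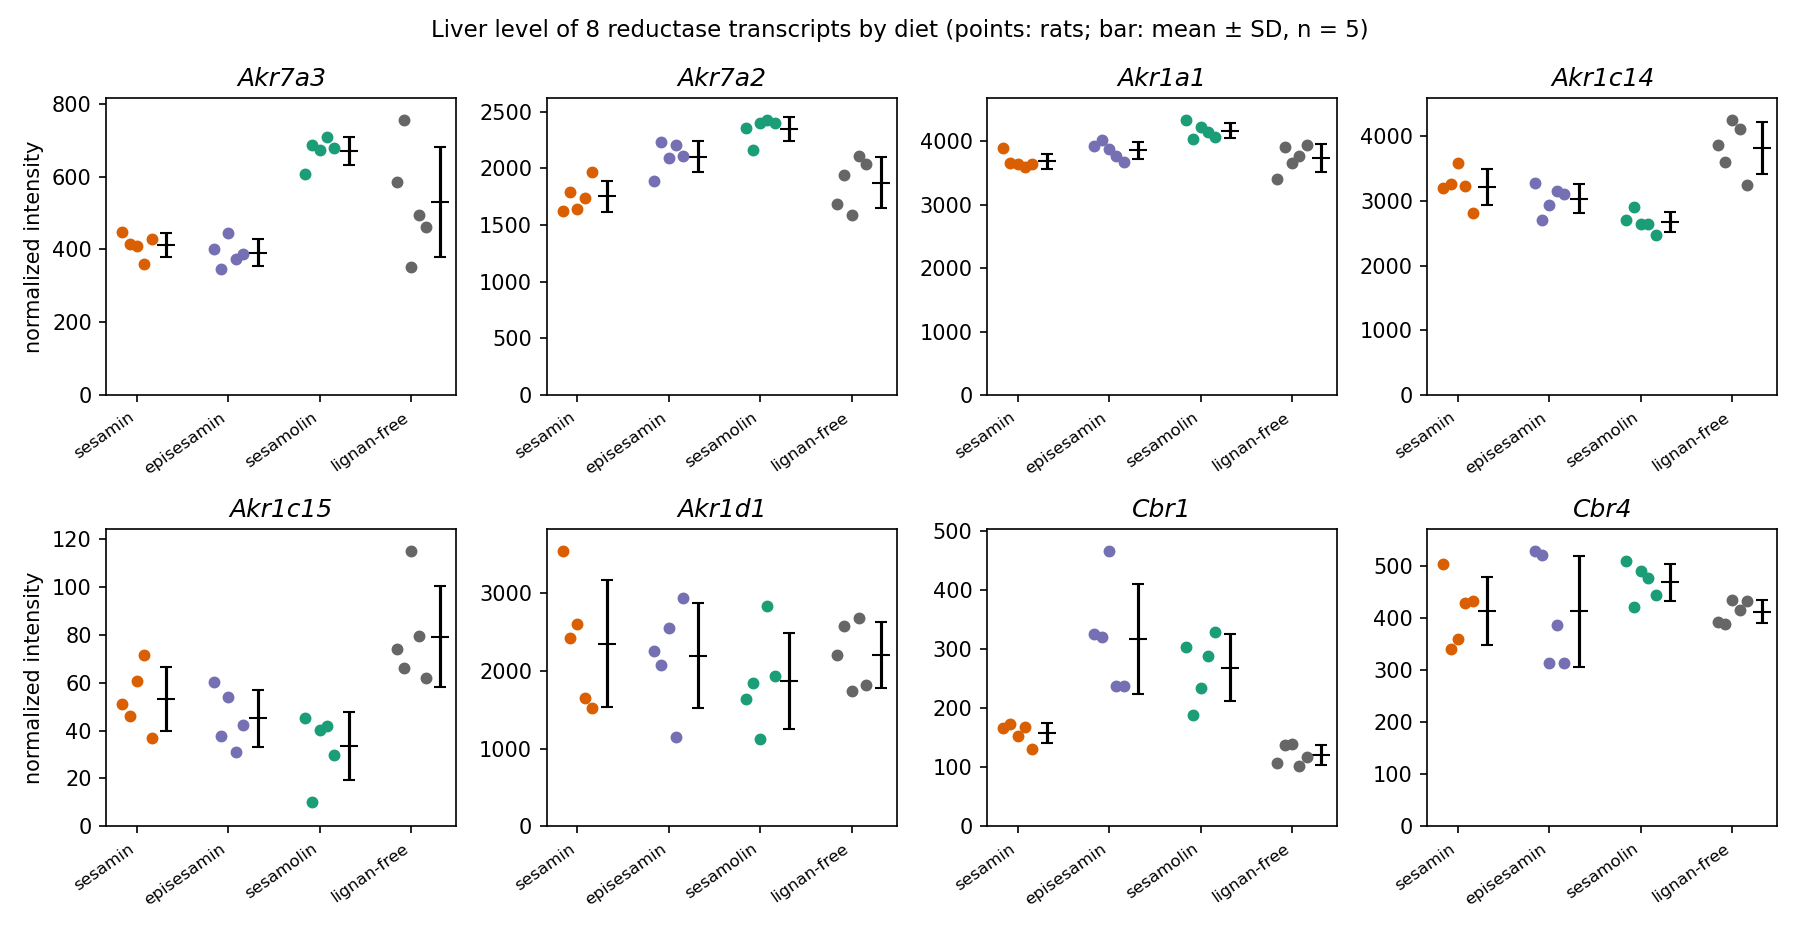
Normalized intensity (y axis, linear, from 0) of the probe set that stands for each of the 8 genes, by diet (x axis), with 1 point per rat and a bar at the mean ± SD of 5 rats. Akr7a3 with sesamolin (671 ± 38.7) lies above every episesamin rat, and Cbr1 with episesamin (318 ± 93.1) lies above every lignan-free rat.

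The levels of the AKR7 enzymes, aflatoxin aldehyde reductase and its relative, are described by diet, and Akr7a3 was chosen on these same arrays. Akr7a3 was at 449, 416, 410, 359 and 428 with sesamin, at 401, 346, 446, 374 and 388 with episesamin, at 606, 688, 673, 709 and 678 with sesamolin, and at 585, 756, 353, 496 and 462 without lignan (probe set 1368121_at). Every sesamolin rat lay above every sesamin and every episesamin rat, while the lignan-free rats were spread widely and overlapped with the rats of all 3 lignan diets. Means were 412 ± 33.4 with sesamin, 391 ± 37.0 with episesamin, 671 ± 38.7 with sesamolin and 530 ± 151 without lignan (SD, n = 5). The coefficient of variation was 5.77% with sesamolin and 28.5% without lignan. Sesamolin minus episesamin was 0.77 on the log2 scale, 1.71-fold, which describes the values that chose the gene.

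Akr7a3 with sesamin differed from the lignan-free diet by -0.32 ± 0.14 (adjusted p = 0.627). The sesamolin and episesamin arrays entered the choice of the gene, so its other differences are given with no test. They were -0.39 for episesamin and 0.38 for sesamolin against the lignan-free diet, -0.08 for episesamin minus sesamin, and 0.70, 1.62-fold, for sesamolin minus sesamin. Without lignan-free replicate 3, at 353, the episesamin difference was -0.53, and without lignan-free replicate 2, at 756, the sesamolin difference was 0.52.

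Akr7a2 was at 1627, 1791, 1643, 1741 and 1968 with sesamin, at 1888, 2232, 2087, 2205 and 2108 with episesamin, at 2354, 2162, 2401, 2426 and 2401 with sesamolin, and at 1683, 1939, 1592, 2110 and 2038 without lignan (1367843_at). Sesamolin rats were all above the lignan-free and the sesamin rats, and they overlapped with the episesamin rats. Akr7a2 rose with sesamolin by 0.33 ± 0.09, 1.26-fold (adjusted p = 0.0296), while the differences with sesamin and episesamin were -0.09 ± 0.09 (adjusted p = 0.899) and 0.17 ± 0.09 (adjusted p = 0.284, and -0.06 with no normalization between arrays). It was 1.34-fold higher with sesamolin than with sesamin (0.42 ± 0.09, adjusted p = 0.017). Episesamin minus sesamin was 0.26 ± 0.09 for Akr7a2 (adjusted p = 0.182) and sesamolin minus episesamin was 0.16 ± 0.09 (adjusted p = 0.915), with an interval of -0.02 to 0.34. The call of sesamolin against no lignan ended when any 1 of 6 rats was left out (lignan-free 1 and 3, sesamolin 1, 3, 4 and 5, adjusted p = 0.0545 to 0.072), with median scaling (adjusted p = 0.255), with no normalization (adjusted p = 0.717), with only these 2 diets in the fit (adjusted p = 0.102), without the dim arrays (adjusted p = 0.144) and without the arrays numbered 1 (adjusted p = 0.108). Against sesamin it ended with median scaling (adjusted p = 0.168), with no normalization (adjusted p = 0.698), with only the 2 diets (adjusted p = 0.0712), without the dim arrays (adjusted p = 0.0714) and without the arrays numbered 1 (adjusted p = 0.0688).

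Akr7a2 and Akr7a3 are neighbours on rat chromosome 5 with 0 protein-coding genes between them. Their promoters are shown because the pair had its highest mean level with the same lignan. Each runs from 250 bases before to 50 after the start of the gene, 5′ to 3′ on the gene's strand, from RefSeq (GRCr8), at chr5:156876471-156876770 on the plus strand for Akr7a3 and chr5:156835339-156835638 on the plus strand for Akr7a2. Capitals mark matches to 3 motifs searched on both strands.
Akr7a3: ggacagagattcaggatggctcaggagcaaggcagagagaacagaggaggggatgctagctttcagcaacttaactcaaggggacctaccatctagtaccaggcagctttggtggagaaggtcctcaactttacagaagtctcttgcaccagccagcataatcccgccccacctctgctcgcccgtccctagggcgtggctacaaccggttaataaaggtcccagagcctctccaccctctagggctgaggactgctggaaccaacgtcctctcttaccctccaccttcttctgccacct
Akr7a2: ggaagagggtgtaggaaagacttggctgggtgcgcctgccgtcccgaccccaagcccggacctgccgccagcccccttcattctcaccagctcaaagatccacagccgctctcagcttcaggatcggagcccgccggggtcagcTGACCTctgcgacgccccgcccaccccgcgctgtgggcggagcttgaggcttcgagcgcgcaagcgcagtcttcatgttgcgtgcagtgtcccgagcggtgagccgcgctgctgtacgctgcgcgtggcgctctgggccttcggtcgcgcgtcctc
The motifs were TGACNNNGC, the core of the antioxidant response element, the direct repeat with 1 base between that PPAR binds with RXR, and its single unit AGGTCA. They occur in 12.1%, 0.0538% and 16.2% of the 33469 promoters in the table. The Akr7a2 promoter holds 1 single unit, on the minus strand and read as TGACCT on the plus strand, and the Akr7a3 promoter holds none of the 3. Of the 8 genes, 7 had a promoter in the table, all but Akr1d1. The GC content was 55.7% for Akr7a3 and 68.7% for Akr7a2.

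Akr1a1, aldehyde reductase, which in rodents takes part in the synthesis of ascorbate, had the smallest SE of the 8 genes. It was at 3888, 3654, 3645, 3587 and 3636 with sesamin, at 3927, 4018, 3882, 3774 and 3665 with episesamin, at 4334, 4041, 4221, 4143 and 4072 with sesamolin, and at 3399, 3906, 3654, 3774 and 3934 without lignan (1398753_at). All 5 sesamolin rats were above the 15 other rats. The differences from the lignan-free diet were small, at -0.02 ± 0.06 with sesamin (adjusted p = 0.979), 0.05 ± 0.06 with episesamin (adjusted p = 0.734) and 0.16 ± 0.06 with sesamolin (adjusted p = 0.156), and none was called. Akr1a1 with sesamolin differed by 0.18 ± 0.06 from sesamin (adjusted p = 0.175) and by 0.11 ± 0.06 from episesamin (adjusted p = 0.925), and with episesamin by 0.07 ± 0.06 from sesamin (adjusted p = 0.713).

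Of the AKR1C enzymes, Akr1c14 and Akr1c15 were called lower with sesamolin, and Akr1c14 also with episesamin. Akr1c14 is the 3α-hydroxysteroid dehydrogenase of rat liver, which inactivates steroid hormones and takes part in bile acid metabolism. Its brightest probe set (1396933_s_at) was at 3194, 3266, 3587, 3238 and 2816 with sesamin, at 3281, 2704, 2941, 3147 and 3102 with episesamin, at 2704, 2900, 2648, 2648 and 2469 with sesamolin, and at 3870, 3597, 4252, 4109 and 3245 without lignan. Every sesamolin rat lay below every lignan-free rat, and lignan-free replicate 5 lay within the range of the sesamin and episesamin rats. Akr1c14 fell with sesamolin by 0.51 ± 0.09 on the log2 scale, to 0.704 times the lignan-free level (adjusted p = 0.00158), and with episesamin by 0.33 ± 0.09, to 0.798 times (adjusted p = 0.0386). With sesamin the difference was -0.24 ± 0.09 (adjusted p = 0.483). Among lignans it was -0.08 ± 0.09 for episesamin minus sesamin (adjusted p = 0.738), -0.27 ± 0.09 for sesamolin minus sesamin (adjusted p = 0.145) and -0.18 ± 0.09 for sesamolin minus episesamin (adjusted p = 0.871, interval -0.37 to 0.00).

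The other probe sets of Akr1c14 gave values of the same sign. In a fit of all 15894 probe sets, 1370563_at was at -0.20 with sesamin, -0.28 with episesamin and -0.51 with sesamolin (adjusted p = 0.776, 0.165 and 0.00964), and 1370708_a_at was at -0.24, -0.32 and -0.39 (adjusted p = 0.652, 0.0965 and 0.0377). All 3 probe sets, which read 1 gene in the same rats, were called lower with sesamolin. In that fit 359 of the 15894 probe sets were called lower with sesamolin. For each of the 3 the sesamolin rats did not overlap with the lignan-free rats, and the share of all probe sets without overlap was not counted. In that fit 1396933_s_at with episesamin had an adjusted p of 0.0522 and was not called. The suffixes s and a mark probes that can bind several transcripts, and the AKR1C genes are alike in sequence. Whether a related transcript adds to the signal was not tested. The episesamin call of Akr1c14 also ended when any 1 of 8 rats was left out (lignan-free 1 to 4, episesamin 2 to 5, adjusted p = 0.0538 to 0.0917) and without the dim arrays (-0.17, adjusted p = 0.488). It ended as well with no normalization, no filter, the mean of the probe sets, only the 2 diets, an actin ratio covariate and without the arrays numbered 1 (adjusted p = 0.0507 to 0.114). The sesamolin call ended in 1 of 36 other ways of processing (16 settings and 20 fits without 1 array each), without the dim arrays (-0.35 ± 0.11, adjusted p = 0.103).

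**Figure D2:**
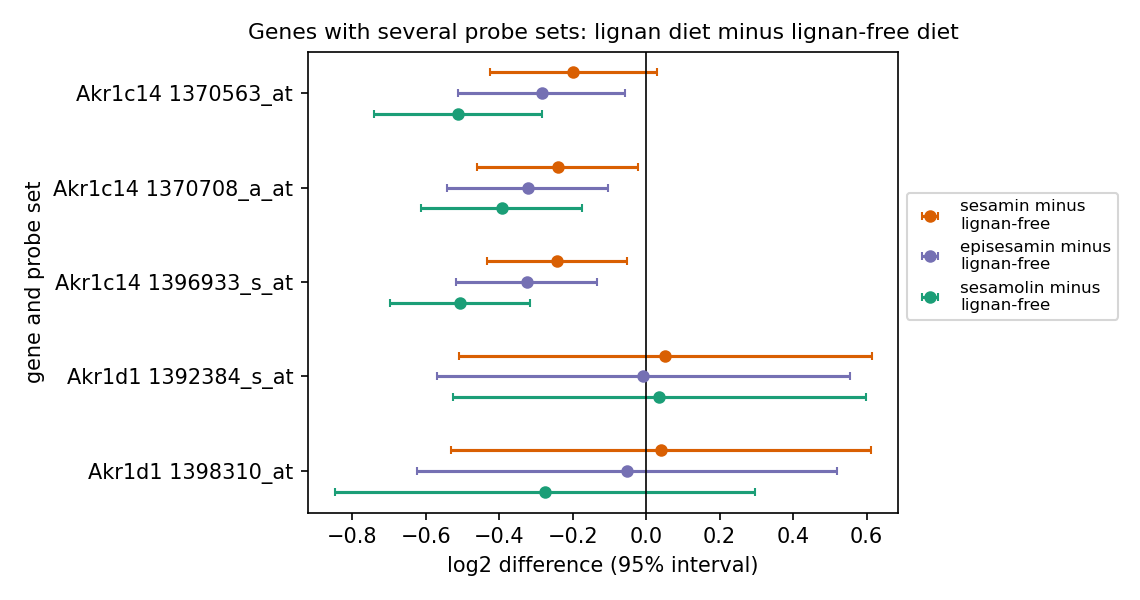
Log2 difference from the lignan-free diet (x axis, with 95% interval) for each probe set of Akr1c14 and Akr1d1 (y axis), 5 rats per diet. The 3 Akr1c14 probe sets lie left of 0 with each lignan, and the 2 Akr1d1 probe sets lie on opposite sides of 0 with sesamolin.

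Akr1c15, whose gene neighbours Akr1c14 on chromosome 17 with 0 protein-coding genes between, had a low signal. It was at 51.3, 46.1, 60.7, 71.5 and 36.8 with sesamin, at 60.2, 37.6, 54.0, 31.1 and 42.5 with episesamin, at 45.2, 10.2, 40.4, 41.8 and 30.0 with sesamolin, and at 74.1, 65.9, 115, 79.4 and 61.8 without lignan (1394681_at). All episesamin and all sesamolin rats lay below all lignan-free rats, and sesamolin replicate 2, a dim array, was the only one of 20 below the filter level. Akr1c15 fell with sesamolin by 1.19 ± 0.27, to 0.439 times the lignan-free level (adjusted p = 0.0125). With episesamin the difference was -0.74 ± 0.27 (adjusted p = 0.123) and with sesamin -0.52 ± 0.27 (adjusted p = 0.698). It was -0.22 ± 0.27 for episesamin minus sesamin (adjusted p = 0.783), -0.67 ± 0.27 for sesamolin minus sesamin (adjusted p = 0.243) and -0.45 ± 0.27 for sesamolin minus episesamin (adjusted p = 0.925, interval -1.01 to 0.11). Without the dim arrays the Akr1c15 sesamolin value was -0.67 ± 0.20 and was not called (adjusted p = 0.082), and it was not called with only the 2 diets in the fit (adjusted p = 0.0624). With 1 array left out the Akr1c15 sesamolin difference ran from -1.31 to -0.90 and was called each time. Without sesamolin replicate 2, which enters the SE shared by all diets, the episesamin difference was -0.74 and was called (adjusted p = 0.0306).

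The promoters of these neighbours are shown because both genes were lower with sesamolin, at chr17:71083135-71083434 on the minus strand for Akr1c14 and chr17:71117908-71118207 on the minus strand for Akr1c15, with the same limits, source and capitals.
Akr1c14: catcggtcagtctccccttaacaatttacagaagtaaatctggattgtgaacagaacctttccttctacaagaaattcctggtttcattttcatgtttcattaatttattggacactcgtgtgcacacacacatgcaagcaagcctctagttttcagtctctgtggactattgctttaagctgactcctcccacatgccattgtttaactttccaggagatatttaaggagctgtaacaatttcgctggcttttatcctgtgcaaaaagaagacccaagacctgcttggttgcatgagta
Akr1c15: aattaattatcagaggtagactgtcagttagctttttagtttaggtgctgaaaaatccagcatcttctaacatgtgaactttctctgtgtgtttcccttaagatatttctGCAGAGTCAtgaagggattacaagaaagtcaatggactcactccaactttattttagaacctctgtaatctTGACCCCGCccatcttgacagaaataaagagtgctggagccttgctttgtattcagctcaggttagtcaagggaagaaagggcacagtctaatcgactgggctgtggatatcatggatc
The Akr1c15 promoter holds 2 matches to TGACNNNGC, 1 on each strand, printed as GCAGAGTCA and TGACCCCGC, and the Akr1c14 promoter holds no match to any of the 3 motifs. Akr1c15 was the only 1 of 7 promoters with this motif. The GC content was 40.7% in both.

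Some markers of Kupffer cells and endothelium were also called lower with episesamin and sesamolin. Over all genes tested, 0.0346% were called lower with sesamin, 2.21% with episesamin and 2.95% with sesamolin. In RNA from whole liver, fewer cells of a type and less RNA per cell cannot be told apart. The summed level of 6 Kupffer cell markers, of 8 listed, was 2520 to 4010 with sesamin, 2608 to 3328 with episesamin, 1889 to 2809 with sesamolin and 3472 to 4377 without lignan, and 0, 1 and 4 of the 6 were called lower with sesamin, episesamin and sesamolin. For 5 endothelial markers, of 7 listed, the sums were 2384 to 2645, 2017 to 2327 and 1963 to 2440 with the 3 lignans and 2534 to 2967 without, with 0, 2 and 2 called lower. For 8 stellate cell markers the sums were 2740 to 3317, 2754 to 3402 and 2403 to 3427 with the 3 lignans and 3299 to 5029 without, and for 4 of 5 listed lymphocyte markers 97.7 to 118, 44.0 to 104 and 69.6 to 102 with the 3 lignans and 121 to 142 without. Of the stellate markers 0 were called with any lignan by limma (1, 1 and 2 at an unadjusted p below 0.05), and of the 3 lymphocyte markers that passed the filter 0 (0, 1 and 2). Of 9 hepatocyte markers 1, Apob, was called lower with sesamolin (-0.30 ± 0.09, adjusted p = 0.0498; named after its value was seen), and 0 were called with sesamin or episesamin by limma (0 and 1 at an unadjusted p below 0.05). For 4 of 5 listed bile duct markers the sums were higher with sesamolin, at 243 to 279, than without lignan, at 130 to 237. They were 162 to 228 with sesamin and 165 to 281 with episesamin, and 0 of 3 past the filter were called by limma. The sums of 2 red blood cell markers overlapped, with 0 called. Cela1, the only adipocyte or exocrine pancreas marker past the filter, was called higher with episesamin (0.72 ± 0.21, adjusted p = 0.0484). The part of these cell types in the lower AKR1C signal was not tested.

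Akr1d1, the steroid 5β-reductase of bile acid synthesis, had the largest SE of the 8 genes. Its brighter probe set (1398310_at) was at 3536, 2426, 2599, 1646 and 1515 with sesamin, at 2252, 2075, 2556, 1143 and 2941 with episesamin, at 1630, 1836, 1126, 2828 and 1939 with sesamolin, and at 2207, 2576, 1739, 2681 and 1823 without lignan. The 4 diets overlapped. Differences from the lignan-free diet were 0.04 ± 0.27 with sesamin (adjusted p = 0.988), -0.05 ± 0.27 with episesamin (adjusted p = 0.939) and -0.28 ± 0.27 with sesamolin (adjusted p = 0.612). The Akr1d1 interval for sesamolin ran from -0.85 to 0.29. The other probe set, 1392384_s_at, gave 0.05, -0.01 and 0.04 (SE 0.27), with the opposite sign for sesamolin.

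Cbr1, the cytosolic carbonyl reductase that acts on quinones, prostaglandins and ketone drugs, had the largest increases of the 8 genes. Cbr1 was at 167, 173, 153, 169 and 131 with sesamin, at 326, 320, 466, 239 and 239 with episesamin, at 304, 188, 234, 289 and 329 with sesamolin, and at 107, 138, 139, 103 and 118 without lignan (1368037_at). All rats on episesamin and on sesamolin were above all rats on sesamin and on the lignan-free diet, and sesamin replicate 5 lay within the lignan-free range. The means were 159 ± 17.2 with sesamin, 318 ± 93.1 with episesamin, 269 ± 57.0 with sesamolin and 121 ± 17.1 without lignan (SD, n = 5). Cbr1 rose with episesamin by 1.32 ± 0.17, 2.50-fold (adjusted p = 7.56e-05), and with sesamolin by 1.10 ± 0.17, 2.14-fold (adjusted p = 0.000606). With sesamin it differed by 0.38 ± 0.17 (adjusted p = 0.654, interval 0.01 to 0.74).

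The 2 epimers differed in Cbr1. Episesamin gave 1.92 times the level with sesamin (0.94 ± 0.17, adjusted p = 0.00817), and sesamolin gave 1.65 times the level with sesamin (0.72 ± 0.17, adjusted p = 0.0388). Sesamolin minus episesamin was -0.22 ± 0.17 (adjusted p = 0.955), and its interval of -0.59 to 0.14 leaves room for a difference in either direction. The Cbr1 call with episesamin held in all 36 other ways of processing, and that with sesamolin ended in 1 of them, no normalization between arrays (0.84, adjusted p = 0.0533). The epimer call ended with no normalization (adjusted p = 0.298) and without the 4 arrays numbered 1 (adjusted p = 0.0626). The call of sesamolin against sesamin ended with median scaling, no normalization, no filter, only the 2 diets in the fit, a brightness covariate and without the arrays numbered 1 (adjusted p = 0.0512 to 0.445). It also ended when any 1 of 11 rats was left out (lignan-free 5, sesamin 1 to 5, episesamin 2, sesamolin 1, 3, 4 and 5, adjusted p = 0.0509 to 0.107).

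The Cbr1 promoter, at chr11:46346155-46346454 on the plus strand with the same limits and source, is shown because this gene had the largest difference from the lignan-free diet, and it holds no match to the 3 motifs, with a GC content of 51.7%.
Cbr1: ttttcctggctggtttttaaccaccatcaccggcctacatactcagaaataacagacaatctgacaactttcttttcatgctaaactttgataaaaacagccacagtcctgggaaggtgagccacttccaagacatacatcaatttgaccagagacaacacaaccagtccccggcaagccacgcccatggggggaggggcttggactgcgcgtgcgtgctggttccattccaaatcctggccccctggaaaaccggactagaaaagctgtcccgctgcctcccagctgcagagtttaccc

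Cbr4, a mitochondrial reductase that in humans forms part of the ketoacyl reductase of fatty acid synthesis, was not called in any comparison. It ranged from 341 to 504 with sesamin, from 314 to 529 with episesamin, from 422 to 511 with sesamolin and from 388 to 435 without lignan (1375529_at). The differences from the lignan-free diet were -0.01, -0.03 and 0.18 (SE 0.14, adjusted p = 0.993, 0.921 and 0.508). The Cbr4 intervals lay between -0.33 and 0.48.

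**Figure D3:**
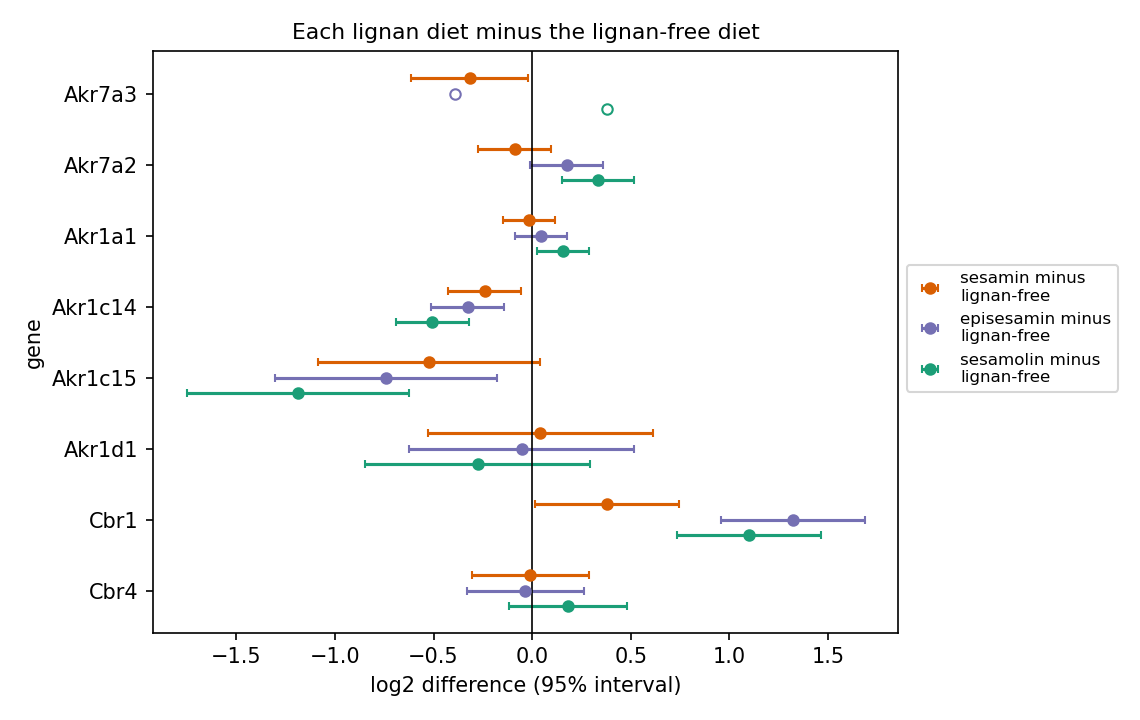
Log2 difference from the lignan-free diet (x axis) with its 95% interval for each of the 8 genes (y axis) and each lignan, 5 rats per diet. Open circles without an interval mark untested Akr7a3 values. Cbr1 lies to the right of 0 with episesamin (1.32) and sesamolin (1.10), and Akr1c14 and Akr1c15 lie left of 0 with each lignan.

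In the comparisons between lignans, episesamin against sesamin called 1 of the 7 reductases besides Akr7a3, Cbr1 higher. Over all genes, 0.821% were higher and 0.406% lower in that comparison. Among the 7 reductases besides Akr7a3, sesamolin against sesamin called Akr7a2 and Cbr1, both higher, beside 1.0% of all genes higher and 0.812% lower. Akr7a3 was chosen on the sesamolin and episesamin arrays, so it is left out of these calls. That split over all genes was 116 to 94, and 9 to 14 with no normalization. Sesamolin against episesamin called 0 of the 7 reductases tested (0 at an unadjusted limma p below 0.05), beside 0% of 11576 genes, of which 663 had an unadjusted p below 0.05. For these 7 genes the 95% interval of sesamolin minus episesamin spanned 0. The order of the diet means differed by gene, with sesamolin highest for Akr7a3, Akr7a2, Akr1a1 and Cbr4, episesamin highest for Cbr1, the lignan-free diet highest for Akr1c14 and Akr1c15, and sesamin highest for Akr1d1.

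**Figure D4:**
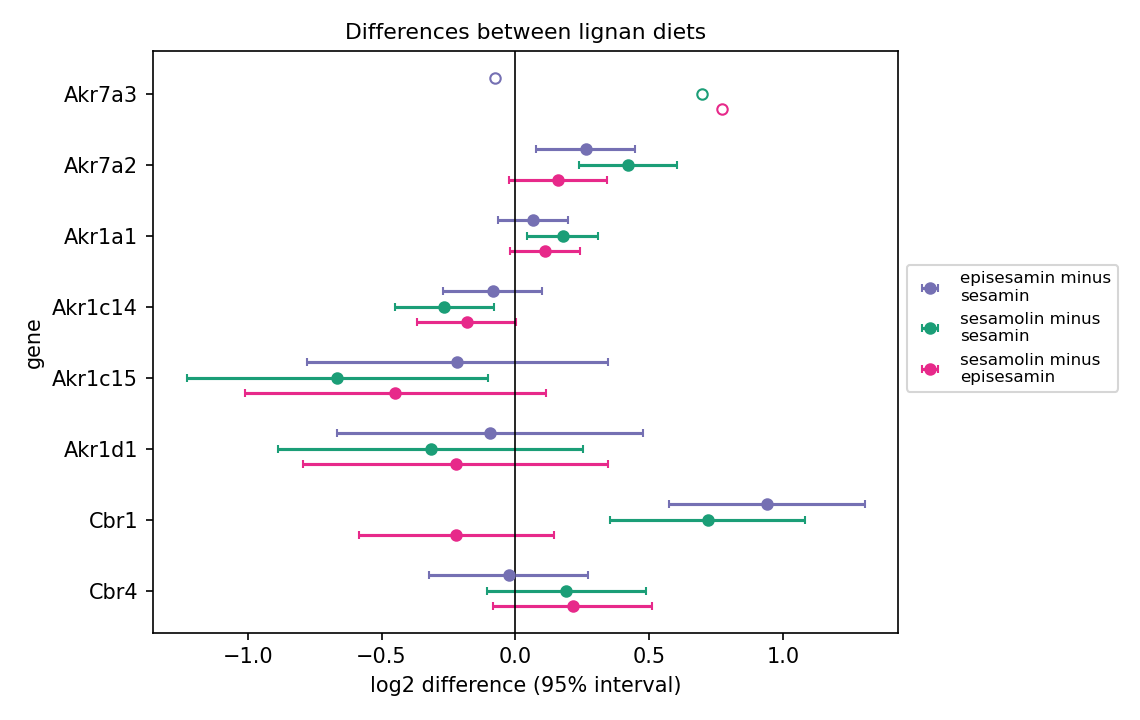
Log2 difference between lignan diets (x axis) with its 95% interval for each of the 8 genes (y axis), 5 rats per diet, with untested Akr7a3 values as open circles. For Akr7a3 sesamolin minus sesamin is 0.70 and sesamolin minus episesamin is 0.77, whereas for Cbr1 the sesamolin minus episesamin interval spans 0 (-0.59 to 0.14).

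Genes with the closest pattern to Akr7a3 and to Cbr1 over the 20 arrays were sought among the genes tested, with uncharacterised loci (LOC and RGD symbols) passed over. They were ranked by the root mean square log2 difference between 2 genes, each set relative to its lignan-free mean. For Akr7a3 they were Rfx5 (0.26), Cyb5r3 (0.26), Rnf11l2 (0.27), Mettl3 (0.27) and Senp2 (0.28), against a median of 0.48 over all genes. Akr7a3 itself varied by 0.37 on this measure, and its nearest genes did not share its level with sesamolin, which was 0.02 to 0.15 above the lignan-free mean for Rfx5, Cyb5r3, Rnf11l2 and Senp2 and -0.03 for Mettl3, against 0.38 for Akr7a3. None of the 5 was called in any comparison.

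For Cbr1 the closest genes were Slc25a20 (0.26), Acad11 (0.27), Hadhb (0.28), Hadha (0.29) and Aco1 (0.30), against a median of 0.97 over all genes and 0.92 for Cbr1 itself. Slc25a20, the carnitine-acylcarnitine carrier of mitochondria, differed from the lignan-free diet by 0.49 ± 0.10 with sesamin, 1.11 ± 0.10 with episesamin and 1.14 ± 0.10 with sesamolin. Hadhb and Hadha, the subunits of the mitochondrial trifunctional protein, were at 0.69 ± 0.09 and 0.55 ± 0.08 with sesamin, at 1.19 ± 0.09 and 1.07 ± 0.08 with episesamin and at 1.09 ± 0.09 and 0.99 ± 0.08 with sesamolin. All 5 genes were called higher with episesamin and with sesamolin, beside 2.91% and 3.28% of all genes. They were picked for their likeness to Cbr1 on these same arrays, so these calls are no separate result. With sesamin, where Cbr1 was not called, Slc25a20, Hadhb and Hadha were called higher (adjusted p = 0.0218, 0.000213 and 0.000476), while Acad11 and Aco1 were not (adjusted p = 0.084 and 0.389). Likeness over 20 arrays that share diets is a description of these arrays.

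**Figure D5:**
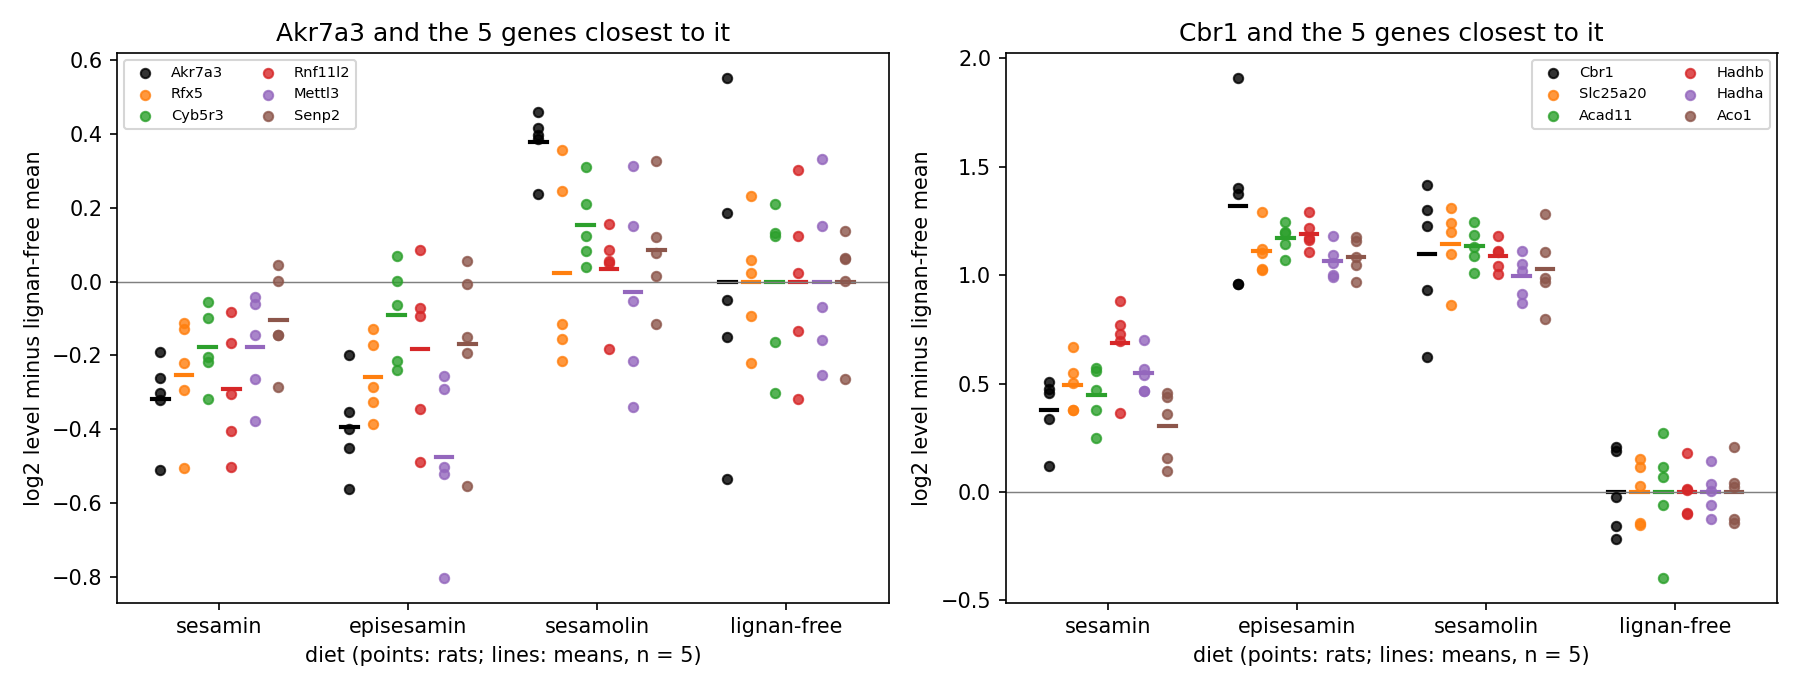
Log2 level relative to the lignan-free mean (y axis) by diet (x axis) for Akr7a3 and Cbr1 and the 5 genes closest to each, uncharacterised loci aside. Each point is 1 rat and each line is the mean of 5 rats. The genes near Cbr1 lie about 1 above the lignan-free mean with episesamin and sesamolin, while with sesamolin the means of those near Akr7a3 (-0.03 to 0.15) lie below that of Akr7a3 (0.38).

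The other genes of these pathways were counted in 6 lists. Over all genes tested, 0.397% were called higher and 0.0346% lower with sesamin. These shares were 2.91% and 2.21% with episesamin and 3.28% and 2.95% with sesamolin. The lists were chosen with earlier results known, so nothing is read from the shares. Of 18 other aldo-keto reductases, 12 had a probe set, 10 passed the filter and 0 were called with any lignan by limma (0, 1 and 1 at an unadjusted p below 0.05 with sesamin, episesamin and sesamolin). Akr1e2 and Akr1c13 were the brightest 2. Akr1e2 was at 0.04 ± 0.09, 0.08 ± 0.09 and 0.03 ± 0.09 with sesamin, episesamin and sesamolin. Akr1c13 was at 0.47 ± 0.23, 0.22 ± 0.23 and 0.08 ± 0.23 (adjusted p = 0.672, 0.633 and 0.89), not called with any lignan. The median of the 10 was 0.11 with sesamin, -0.02 with episesamin and -0.08 with sesamolin. Of 36 other short-chain reductases measured, 4 were higher and 0 lower with sesamin, 10 higher and 1 lower with episesamin, and 8 higher and 2 lower with sesamolin, with medians of 0.04, 0.24 and 0.15. They were led by Hsdl2 (1.42 ± 0.14, 2.45 ± 0.14 and 2.42 ± 0.14) and by the dienoyl-CoA reductases of unsaturated fatty acid oxidation, the mitochondrial Decr1 (0.93 ± 0.08, 1.41 ± 0.08 and 1.36 ± 0.08) and the peroxisomal Decr2 (0.93 ± 0.11, 1.28 ± 0.11 and 1.27 ± 0.11). Pecr and Rdh7, bright members of that list, were not called, at 0.20 ± 0.07 and -0.17 ± 0.08 with episesamin.

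Of 20 aldehyde and alcohol dehydrogenases measured, 1 was higher and 0 lower with sesamin, 3 higher and 1 lower with episesamin, and 2 higher and 2 lower with sesamolin. The shares over all genes given above stand beside these counts and the list counts that follow. Aldh1a1, a retinaldehyde dehydrogenase, rose by 2.51 ± 0.34 with episesamin and 2.26 ± 0.34 with sesamolin (adjusted p = 0.000131 and 0.000434). Aldh3a2, the fatty aldehyde dehydrogenase, rose with each lignan, by 0.34 ± 0.07, 0.53 ± 0.07 and 0.45 ± 0.07. Aldh1b1 fell by 1.50 ± 0.40 with episesamin (adjusted p = 0.0367). With sesamin and sesamolin it was at -0.94 ± 0.40 and -1.31 ± 0.40, not called (adjusted p = 0.603 and 0.0612). Aldh2, the mitochondrial acetaldehyde dehydrogenase, fell by 0.60 ± 0.16 with sesamolin (adjusted p = 0.0287). With sesamin and episesamin Aldh2 was at -0.01 ± 0.16 and -0.45 ± 0.16, not called (adjusted p = 0.992 and 0.11). Of 14 bile acid and steroid ring enzymes, only Hsd17b4, the peroxisomal bifunctional enzyme, was called, higher with episesamin (0.68 ± 0.07) and sesamolin (0.61 ± 0.07). Of 15 genes of NADPH supply, Idh1, the cytosolic isocitrate dehydrogenase, was called with episesamin (0.28 ± 0.08, adjusted p = 0.0491) and Me1, malic enzyme, with sesamolin (0.73 ± 0.19, adjusted p = 0.0285). Of 21 Nrf2 targets, Me1 with sesamolin was the only call in the 3 comparisons with the lignan-free diet. The medians of these 4 lists lay between -0.13 and 0.04, against -0.02 to -0.01 over all genes.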

How the data were processed

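Liver RNA was measured on 20 arrays in 4 diets of 5 rats, grouped by the labels. The authors deposited linear intensity values for 31099 probe sets (0.0222 to 18018.4), and array means from 159 to 271 show no common scale. Of the software behind them, the sources used here give no name. Of the probe sets, 20832 had 1 symbol in the platform annotation, 436 had several and 9831 were not listed. Symbols were updated by Entrez ID through RefSeq, 57 control probe sets were left out, and 20826 probe sets of 14217 genes remained. Arrays were quantile normalized, an offset of 5.85 (20th percentile) was added and log2 taken. Probe sets above 17.8 (40th percentile) on at least 5 arrays were kept, and the brightest stood for its gene, which gave 11576 genes. A model with 4 diet means was fitted by limma 3.58.1 (R 4.3.3). The residual degrees of freedom were 16 and the prior ones 2.592, with two-sided p-values, Benjamini-Hochberg adjustment over all genes of each of 6 comparisons, calls below 0.05 and 95% intervals.

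The 8 genes, gene lists, marker lists and motifs were chosen with earlier results of these data known, so p-values describe the arrays and are no independent evidence. Besides the 8 genes, the text names the 5 genes closest to Akr7a3 and to Cbr1, and from each list up to 3 called genes of lowest adjusted p per lignan and up to 2 of the brightest uncalled genes, though not every such gene is given. Uncharacterised loci (LOC and RGD symbols) were passed over in both choices. The lists were other aldo-keto reductases, other short-chain reductases, aldehyde and alcohol dehydrogenases, bile acid and steroid ring enzymes, NADPH supply and Nrf2 targets. Correlations between arrays of a diet were 0.9595 to 0.9798, and 0 columns were identical. Deviations from the diet mean correlated above 0.1 in 10 of 30 pairs of arrays with the same number (range -0.059 to 0.247), not in every pair, so the numbers were not treated as pairing rats. Alternatives were other scalings, offsets, filters and probe set rules, array weights, trended and robust eBayes, a fit to the diets compared alone, the replicate block, brightness and actin ratio covariates, and fewer arrays. Precision is limited by the number of arrays, 5 per diet.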

Additional observations from a re-analysis of the deposited data

Results flagged for a closer look

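In 3 of 44 groups of 5 rats examined, 1 per probe set and diet, the end value lay far from the other 4, and chance flags about 1 in 20 groups. Akr7a2 was at 2162 in sesamolin replicate 2, a dim array, and at 2354 to 2426 in the other sesamolin rats, so the gap was 0.74 of the range of the group. Akr1a1 was at 3888 in sesamin replicate 1 and at 3587 to 3654 in the other sesamin rats (0.773 of the range). The second probe set of Akr1d1, 1392384_s_at, was at 341 in sesamin replicate 2, another dim array, and at 529 to 600 in the other sesamin rats (0.777 of the range). The part of array brightness in these values was not tested.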

How the results depend on the processing

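All alternatives were listed with earlier results known. Against the lignan-free diet, the number of reductases called with episesamin, 2 as reported, was 1 with no normalization, no filter, the mean of probe sets, every probe set, only the groups compared, the actin ratio as covariate, without dim arrays and without the arrays numbered 1, and 1 to 3 with 1 array left out. With sesamolin it was 4 as reported, 2 with no normalization and with only the groups compared, and 1 without the dim arrays. Episesamin against sesamin called 1 as reported and 0 with no normalization and without the arrays numbered 1. Sesamolin against sesamin, with Akr7a3 left out, called 2 as reported, Akr7a2 and Cbr1. Both calls ended with median scaling, no normalization, only the groups compared and without the arrays numbered 1. Without the dim arrays the Akr7a2 call ended and that of Cbr1 was left. The settings that ended the Cbr1 call alone are given with that gene above. With the replicate number as a block, 1 of the reported calls ended, Cbr1 between sesamolin and sesamin (adjusted p = 0.0572), and calls over all genes were 51, 696, 858, 155, 262 and 0 against 50, 593, 722, 142, 210 and 0.

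Sign changes occurred in 12 of 48 reductase values, none of them called. Akr1d1 with sesamin against no lignan was -0.033 with median scaling, -0.022 with no normalization, -0.044 with array weights, -0.070 without the dim arrays, -0.12 without the arrays numbered 1 and -0.12 to 0.18 with 1 array left out. With episesamin it was 0.018 with the actin ratio as covariate, 0.062 without dim arrays and -0.18 to 0.16 with 1 left out, and for episesamin minus sesamin 0.012, 0.13, 0.046 without the arrays numbered 1, and -0.23 to 0.12. Cbr4 was 0.074 without the dim arrays and -0.084 to 0.055 with 1 left out for sesamin, 0.047 with brightness, 0.049 with actin, 0.12 without the dim arrays and -0.13 to 0.054 for episesamin, -0.045 with no normalization for sesamolin, and 0.059, 0.10, 0.045 and -0.12 to 0.064 for episesamin minus sesamin. Akr1a1 with episesamin was -0.015 with median scaling and -0.15 with no normalization, with sesamin it was -0.052 to 0.0008 with 1 left out, and episesamin minus sesamin was -0.083 with no normalization. Akr7a2 with episesamin was -0.059 with no normalization, and Akr1c14 for episesamin minus sesamin was 0.066 without the dim arrays. With no normalization the median of all genes moved to -0.25 with episesamin, -0.22 with sesamolin, -0.17 for episesamin minus sesamin and -0.14 for sesamolin minus sesamin, and with median scaling to -0.13 with episesamin. Relative to that median, Akr7a2 with episesamin was 0.192 as reported, 0.202 with median scaling and 0.194 with no normalization. Akr1a1 with episesamin was 0.065, 0.114 and 0.105 in the same order. With sesamin Akr1a1 changed sign on this measure, at -0.009, 0.011 and 0.0125. The cause of the sign changes was not tested.

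Calls over all genes, in the order no normalization, only the groups compared and without the arrays numbered 1, were 18, 31 and 30 with sesamin (50 reported), 263, 352 and 356 with episesamin (593), 264, 376 and 376 with sesamolin (722), 12, 81 and 77 for episesamin minus sesamin (142) and 23, 52 and 114 for sesamolin minus sesamin (210). Without the dim arrays they were 295, 388 and 105 with episesamin, sesamolin and sesamolin minus sesamin, with median scaling 65 and 81 for episesamin and sesamolin minus sesamin, and with the actin covariate 78 for episesamin minus sesamin. With 1 array left out they fell to 372 with episesamin (lignan-free 4 and 5, episesamin 3 and 4 moved them by over 1.5 times), to 476 with sesamolin (lignan-free 5, sesamolin 5), to 84 for episesamin minus sesamin (sesamin 4 and 5, episesamin 5) and to 116 for sesamolin minus sesamin (sesamin 3 to 5, sesamolin 3). For sesamolin minus episesamin 1 gene was called with no filter, without the dim arrays and without any 1 of lignan-free replicates 2 and 3 and episesamin replicate 4.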

Other observations

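Between lignans, the other short-chain reductases had 4 of 36 measured genes higher and 0 lower with episesamin than with sesamin, and 3 higher and 1 lower with sesamolin than with sesamin. Over all genes tested, 0.821% were higher and 0.406% lower for episesamin minus sesamin. The shares for sesamolin minus sesamin were 1.0% and 0.812%. Hsdl2 was 1.03 ± 0.14 higher with episesamin than with sesamin (log2, limma adjusted p = 0.000692) and 1.0 ± 0.14 higher with sesamolin than with sesamin (adjusted p = 0.000625). Decr1 was higher by 0.48 ± 0.08 with episesamin and by 0.42 ± 0.08 with sesamolin than with sesamin (adjusted p = 0.00456 and 0.0109). Aldh1a1 was 1.55 ± 0.34 higher with episesamin than with sesamin (adjusted p = 0.0308), and its value for sesamolin minus sesamin was 1.29 ± 0.34 (adjusted p = 0.063). Me1 was 0.90 ± 0.19 higher with sesamolin than with sesamin (adjusted p = 0.0179). Among 10 other aldo-keto reductases 0 were called in any of these pairs by limma (0 at an unadjusted p below 0.05 for episesamin minus sesamin, 1 for sesamolin minus sesamin and 2 for sesamolin minus episesamin).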
